A study of Drosophila melanogaster with 2 samples.

Results

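The ferritin genes of Drosophila melanogaster, Fer1HCH, Fer2LCH and Fer3HCH, were examined for binding of MTF-1, a metal-responsive transcription factor. The 3 genes were chosen by symbol from 13945 protein-coding genes of the Ensembl BDGP6.54 annotation. Every listed region whose summit, the base of highest signal, lay in a ferritin gene or within 5 kb of it was kept. This gave 8 of the 3587 thresholded peaks. It also gave 22 candidate regions from the list called on both replicates pooled, 17 from the list of replicate 2 and 21 from that of replicate 4, of 30000 regions in each list.

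The binding maps came from chromatin immunoprecipitation followed by sequencing (ChIP-seq) of whole embryos aged 0 to 24 h, of mixed sex, from transgenic flies with a stable C-terminal GFP fusion of MTF-1. The study has 1 group, MTF-1-GFP embryos, with 2 samples labelled as biological replicates 2 and 4; nothing in the labels says that they came from separate crosses. Which promoter drives the fusion, and whether the endogenous MTF-1 gene is intact, is not stated in these sources. With 1 group of 2 samples no difference between conditions could be tested, so the values below are descriptions, set beside the same measure over all peaks or genes. Signals from whole embryos do not show in which cells MTF-1-GFP was bound. The free-text label of both samples calls them input controls, whereas their titles, assay and antibody label describe an immunoprecipitated factor; they were read as immunoprecipitates, since the peak lists of both also drew on a further, shared file.

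Ferritin is the protein shell in which cells store iron. Heavy chains oxidise the incoming iron and light chains help to form its mineral core. In Drosophila, Fer1HCH encodes the heavy chain and Fer2LCH the light chain of the ferritin of the secretory pathway, while Fer3HCH encodes a mitochondrial ferritin. MTF-1 has zinc fingers that contact metal response elements (MREs) in DNA, best known from the promoters of metallothionein genes, whose products sequester heavy metals. The core of the element is TGCRCNC, where R is A or G and N is any base.

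Fer1HCH (FBgn0015222) spans chr3R:30385573-30388178 on the minus strand. Fer2LCH (FBgn0015221) spans chr3R:30387804-30390584 on the plus strand. Their 5′ ends overlap by 375 bp, so 1 set of regions serves both genes, and they are described below as a pair. Fer3HCH (FBgn0030449) spans chrX:13107382-13108194 on the minus strand, wholly within Chpf, a chondroitin polymerizing factor gene that is transcribed from the same strand. The coordinates are those of dm6.

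A group of 4 MRE cores lay within 100 bp of the strongest ferritin summit, and their sequences are shown because they mark the place where signal was highest. Each was read along the minus strand, the coding strand of Fer1HCH, with the core in capitals.
chr3R:30386919-30386947, 81 bp from the summit: cattacagtttTGCACACggtttttgtgc
chr3R:30386985-30387013, 15 bp from the summit: gcggcgagagcTGCGCACgttaccaatgc
chr3R:30387035-30387063, 35 bp from the summit: accatgcttttTGCACACggcactacacg
chr3R:30387086-30387114, 86 bp from the summit: aaggcgctcttTGCACACggcttttacgg
Distances run from the summit to the middle of the core, and the summit lay between the second and the third core. The core starts were 66, 50 and 51 bp apart. Of the sites, 3 read TGCACAC and 1 read TGCGCAC, and all 4 had a G as the next base after the core.

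A further 4 cores lay within 100 bp of weaker summits at the pair, and are shown for comparison, each along its own strand.
chr3R:30387926-30387954, minus strand, peak of rank 148: aaagataacagTGCACACtctcccatcac
chr3R:30388721-30388749, minus strand, peak of rank 36: atgtgttgtttTGCGCTCagtgcgggatt
chr3R:30388744-30388772, plus strand, peak of rank 36: acacatgcccaTGCACGCtctccaaaacc
chr3R:30391215-30391243, plus strand, peak of rank 1021: tcactgcctggTGCACACggctttgccgc
The last of these shared with 3 of the cores at the strongest summit the longer run TGCACACGG. The other 3 did not hold it.

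Fer1HCH and Fer2LCH shared the peak of rank 2 by signal. It covered chr3R:30386641-30387525 with its summit at 30387014. Signal is the authors' own value for a region, on a scale that is not stated, so it was compared only within a list. The peak had a signal of 5948 in replicate 2 and 6127 in replicate 4, and of 11844 in the pooled list. It held rank 2 in each of the 3 lists. Its signal was 232 times the list median in replicate 2, 238 times in replicate 4 and 282 times in the pooled list. Relative to the region of rank 3, it was 6.12 times as high in replicate 2, 5.03 times in replicate 4 and 6.02 times in the pooled list. The region of rank 1 was closer, since the ferritin peak reached 0.891 of its signal in replicate 2, 0.632 in replicate 4 and 0.731 in the pooled list. The ferritin peak was thus second in both samples, far above the third region and below the first.

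The summit was placed to within 1 bp, at 30387014 in replicate 2 and at 30387015 in replicate 4. Over the 3421 thresholded peaks with a region in both replicates, the median distance between the replicate summits was 30 bp, and 168 of them (4.91%) were placed as closely. The interval was also the widest of each list. It measured 885 bp in the pooled list, 915 bp in replicate 2 and 908 bp in replicate 4, against list medians of 344, 524 and 344 bp. Exactly the median width was given to 96.8%, 97.5% and 97.4% of regions in these lists, so the medians are not measures of a typical peak.

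**Figure D1:**
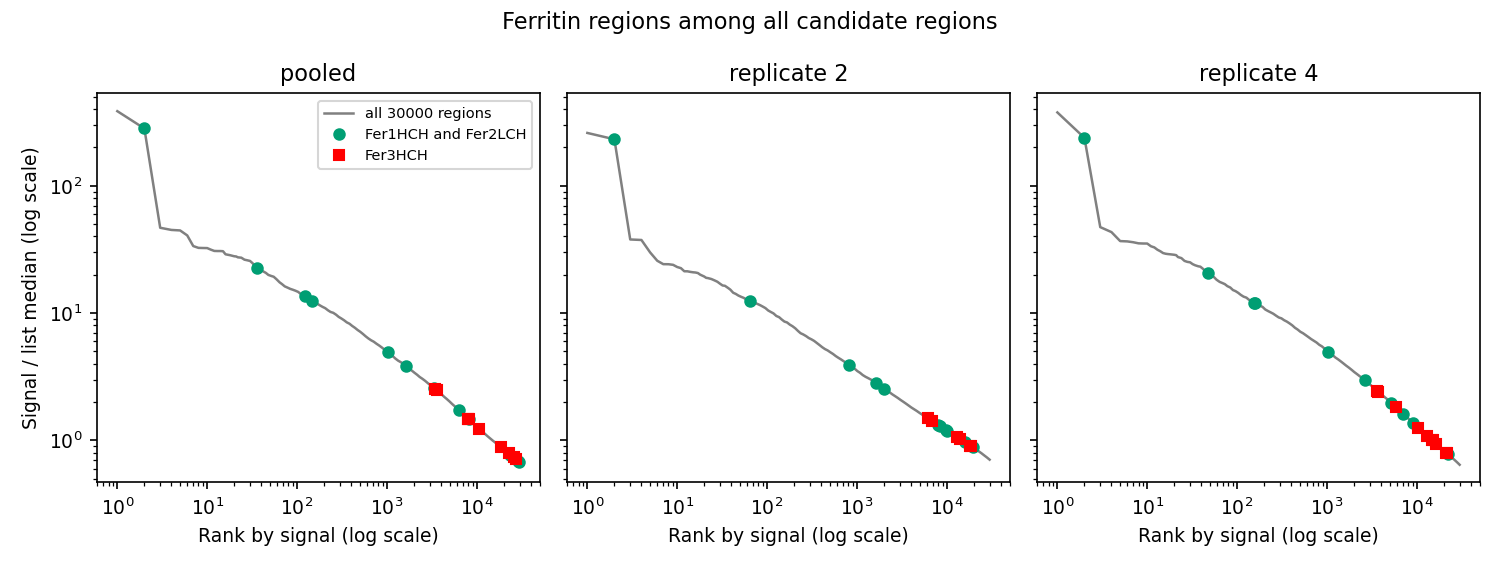
Signal of each region as a multiple of its list's median (log scale) against its rank by signal (log scale), in the pooled list and both replicate lists. The grey line is drawn through ranks spaced evenly on the log scale, circles are regions at Fer1HCH and Fer2LCH, and squares are regions at Fer3HCH. One circle stands at rank 2, at 282, 232 and 238 times the median in the pooled, replicate 2 and replicate 4 lists, while no square exceeds 2.54 times the median.

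The strongest summit lay inside Fer1HCH, not at an annotated start. Fer1HCH has 4 distinct transcript starts over 9 transcripts, and the summit was downstream of each: 586 bp from the start of RF, 605 bp from that of RI and RJ, 846 bp from that shared by RB, RC, RD, RE and RG, and 1164 bp from that of RA. It fell in the annotated 5′ UTR of RJ and in an intron of the other 8 transcripts. Fer2LCH also has 4 starts, over 5 transcripts, and the summit was upstream of each, by 790 bp for RA, 1262 bp for RB, 1816 bp for RD and RE and 2125 bp for RC. Every ferritin start of the pair therefore lay to the same side of the strongest summit, the nearest at 586 bp.

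Weaker peaks did lie at starts of the pair. The second strongest peak, chr3R:30388501-30388979, had its summit 28 bp upstream of the shared start of Fer2LCH-RD and Fer2LCH-RE, within the 5′ UTR of RA and RB. Its signal was 322 in replicate 2 (rank 64), 532 in replicate 4 (rank 47) and 953 in the pooled list (rank 36). That was 5.41%, 8.69% and 8.04% of the strongest ferritin peak in the same list. It was the next in order at the pair in all 3 lists.

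An interval at chr3R:30387651-30388351 covered the overlapping 5′ ends of both genes and held a pair of summits in the pooled list. The first, at 30387853, lay 7 bp downstream of the start shared by 5 Fer1HCH transcripts and 49 bp downstream of the start of Fer2LCH-RA, with a pooled signal of 523 (rank 148). The other, at 30388055, lay 123 bp downstream of the start of Fer1HCH-RA, with a pooled signal of 162 (rank 1622). Each replicate had a single region there, with a signal of 65.1 in replicate 2 (rank 2026) and of 309 in replicate 4 (rank 159). The replicate 2 summit was at 30387903 and the replicate 4 summit at 30387939, 50 and 86 bp from the first pooled summit. Both lay upstream of the start shared by 5 Fer1HCH transcripts, so the 7 bp holds for the pooled summit alone. This start-proximal region thus ranked far higher in replicate 4 than in replicate 2, and the 2 pooled summits are not separate measurements in the replicates.

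The peak at chr3R:30389154-30389490 spanned a coding exon shared by all 5 Fer2LCH transcripts and part of the intron after it, with a short further exon of RE. Its summit lay in that intron, 5 bp past the exon and 194 bp downstream of the start of RC. It differed between the samples in the same way, with a signal of 72.7 in replicate 2 (rank 1625), 311 in replicate 4 (rank 154) and 572 in the pooled list (rank 123). Relative to the strongest ferritin peak of its own list, it stood at 1.22% in replicate 2 and at 5.07% in replicate 4. The interval at the overlapping 5′ ends stood at 1.1% in replicate 2 and at 5.05% in replicate 4.

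A pair of peaks lay at the outer edges of the pair. The peak at chr3R:30391129-30391320 was intergenic, with its summit 630 bp beyond the 3′ end of Fer2LCH. Its signal was 101 in replicate 2 (rank 817), 128 in replicate 4 (rank 1029) and 207 in the pooled list (rank 1021), so its rank was close in both samples. The peak at chr3R:30385630-30385973 had its summit in the 3′ UTR of Fer1HCH, at the annotated 3′ end of 3 transcripts (RF, RI and RJ) and within the 3′ UTR of the other 6. Its signal was 33.2 in replicate 2 (rank 8363), 76.5 in replicate 4 (rank 2650) and 109 in the pooled list (rank 3331), and it was the weakest thresholded peak of the pair.

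**Figure D2:**
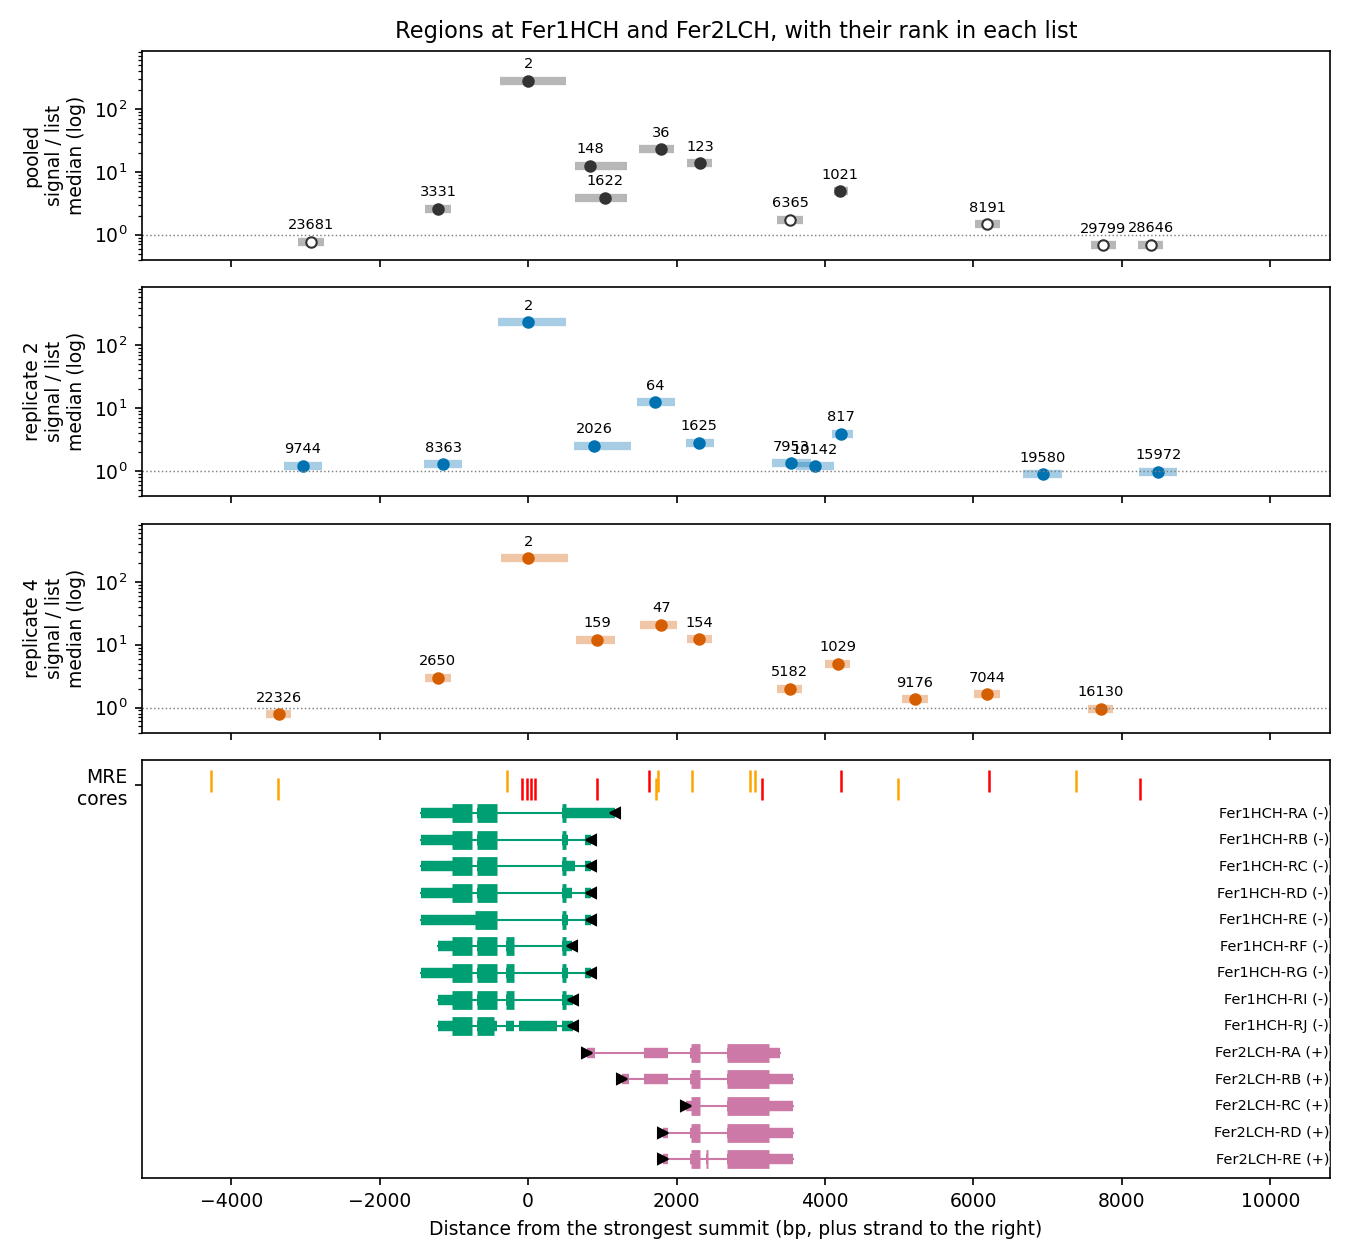
Regions at Fer1HCH and Fer2LCH in the pooled, replicate 2 and replicate 4 lists, with distance from the strongest summit in bp on the x axis and signal as a multiple of the list median on a log y axis. Bars are region intervals, points are summits, numbers are ranks, and open points are pooled regions that are not in the thresholded list. The lowest panel shows transcripts, with thicker blocks for coding sequence and a triangle at each start, and ticks for MRE cores (red for TGCACAC and TGCGCAC, orange for other forms; upper row plus strand, lower row minus strand). The region of rank 2 lies within Fer1HCH with 4 red ticks beneath it, and weaker regions lie at the starts to its right.

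The pair carried many peaks. Fer1HCH and Fer2LCH each had 7 thresholded summits in or within 5 kb of the gene, a count reached by 39 of 13945 protein-coding genes (0.28%). The 7 include both summits of the interval at the overlapping 5′ ends, where each replicate had a single region. Summits, not intervals, were counted for all genes. At least 1 thresholded summit lay in or within 5 kb of 38.7% of protein-coding genes, Fer3HCH among them. Longer genes have wider windows, and among the 8625 genes of at most 3000 bp only 3 reached 7 summits, namely both genes of the pair and Tsen34, a gene for a subunit of the tRNA splicing endonuclease. Summits inside the gene body numbered 4 in Fer1HCH, 4 in Fer2LCH and 0 in Fer3HCH, and 10.9% of protein-coding genes had at least 1.

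The crowding can also be counted around the strongest summit, but from the same 7 summits, so this is not a second observation. Within 5 kb the strongest summit had 6 other thresholded summits, against a median of 1 and a maximum of 6 over all thresholded peaks. In total 17 peaks (0.474%) had as many, 5 of them at the pair. Of the 10 strongest pooled regions, the ferritin peak had 6 others within 5 kb among the strongest 3587, and each of the other 9 had between 0 and 4.

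In each replicate, the strongest 3587 regions were taken to match the size of the thresholded list. Of these, 5 lay in or within 5 kb of the pair in replicate 2 and 6 in replicate 4. At least 1 such region was found for 37% of protein-coding genes in replicate 2 and for 39.4% in replicate 4. Beside the thresholded peaks, the pooled list held 5 more regions at the pair, of ranks 6365 to 29799. The strongest of them, with its summit in the 3′ UTR of Fer2LCH, had a signal of 72.6, against 109 for the weakest thresholded peak of the pair. Beyond the window, the nearest further thresholded summit was 32700 bp from the pair and had rank 2320.

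**Figure D3:**
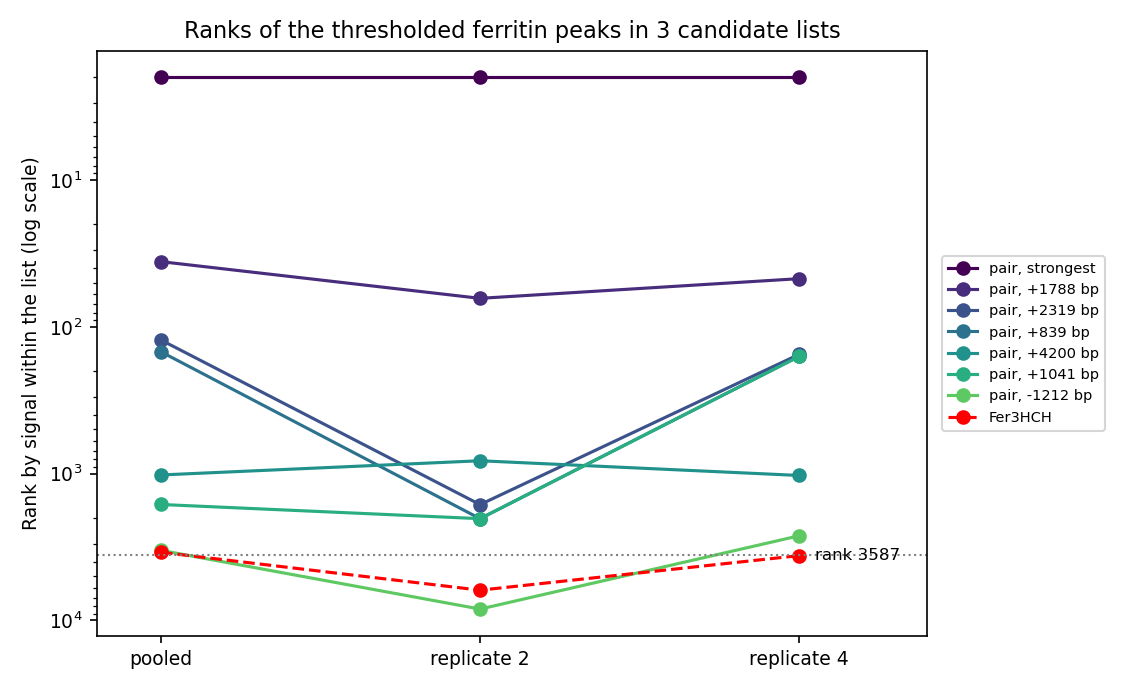
Rank by signal (inverted log scale) of the 8 thresholded ferritin peaks in the pooled, replicate 2 and replicate 4 lists, with peaks of the pair named by their distance from its strongest summit. The dotted line marks rank 3587, the size of the thresholded list. The strongest peak is at rank 2 in all 3 lists. The peaks at -1212, +839, +1041, +1788 and +2319 bp rank lower in replicate 2 than in replicate 4. Those at +839 and +1041 bp share 1 region in each replicate. Fer3HCH lies below the dotted line in both replicates, and the peak at -1212 bp does so in replicate 2.

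The nearest neighbours of the pair are transposable elements, at gaps of 2412 bp and 5689 bp. The nearest other protein-coding gene, heca, lies 13191 bp away. No start of another protein-coding gene therefore falls in the 5 kb window, and the transcript start nearest to each of the 7 thresholded summits belonged to Fer1HCH or Fer2LCH.

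Fer3HCH, the mitochondrial ferritin gene, had 1 weak peak. It has 1 transcript, and the thresholded peak lay within 5 kb of it, at chrX:13108403-13108746, with the summit 381 bp upstream of its start and in an intron of Chpf. Its signal was 38.2 in replicate 2 (rank 6218), 63.4 in replicate 4 (rank 3615) and 107 in the pooled list (rank 3432). In multiples of the list median this was 1.49 in replicate 2, 2.46 in replicate 4 and 2.54 in the pooled list, against 232, 238 and 282 for the strongest peak of the pair. Neither replicate placed it among its strongest 3587 regions. Of all thresholded peaks, 69.1% had a region among the strongest 3587 of replicate 2 and 82.5% among those of replicate 4. The Fer3HCH peak was near the bottom of the thresholded list, at 0.696 of that list's median signal.

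The sequence around the Fer3HCH summit is shown because it held no MRE core, and that around the intergenic summit beyond Fer2LCH because it held one although no annotated start was near. Both windows are 101 bases of the plus strand, centred on the summit, with any core in capitals.
Fer3HCH, chrX:13108525-13108625: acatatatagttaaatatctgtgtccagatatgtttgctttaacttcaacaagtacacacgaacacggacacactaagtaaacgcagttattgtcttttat
Beyond Fer2LCH, chr3R:30391164-30391264: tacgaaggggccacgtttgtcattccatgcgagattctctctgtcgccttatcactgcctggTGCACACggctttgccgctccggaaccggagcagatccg
Within 100 bp of the summit, G and C made up 31.8% of bases at Fer3HCH and 57.7% beyond Fer2LCH. At the strongest summit of the pair they made up 50.7%.

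The thresholded list was identical to the strongest 3587 regions of the pooled list, so a region's place in it followed its pooled signal. At Fer3HCH a further region just missed it. It covered chrX:13105245-13105588, 2777 bp downstream of the Fer3HCH start and past the end of the gene, with a pooled signal of 104.0 and rank 3592, beside 106.9 and rank 3432 for the region that was kept. Its ranks in replicate 2 (6906) and replicate 4 (3724) were close to those of the kept region as well. The pooled list held 10 regions at Fer3HCH in all. The region with its summit inside the gene, in coding sequence, had rank 18544, below the list median, and that at the Chpf start, 35 bp from it, had rank 8023. The nearest thresholded peak outside the window was 7283 bp from Fer3HCH and had rank 1551.

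**Figure D4:**
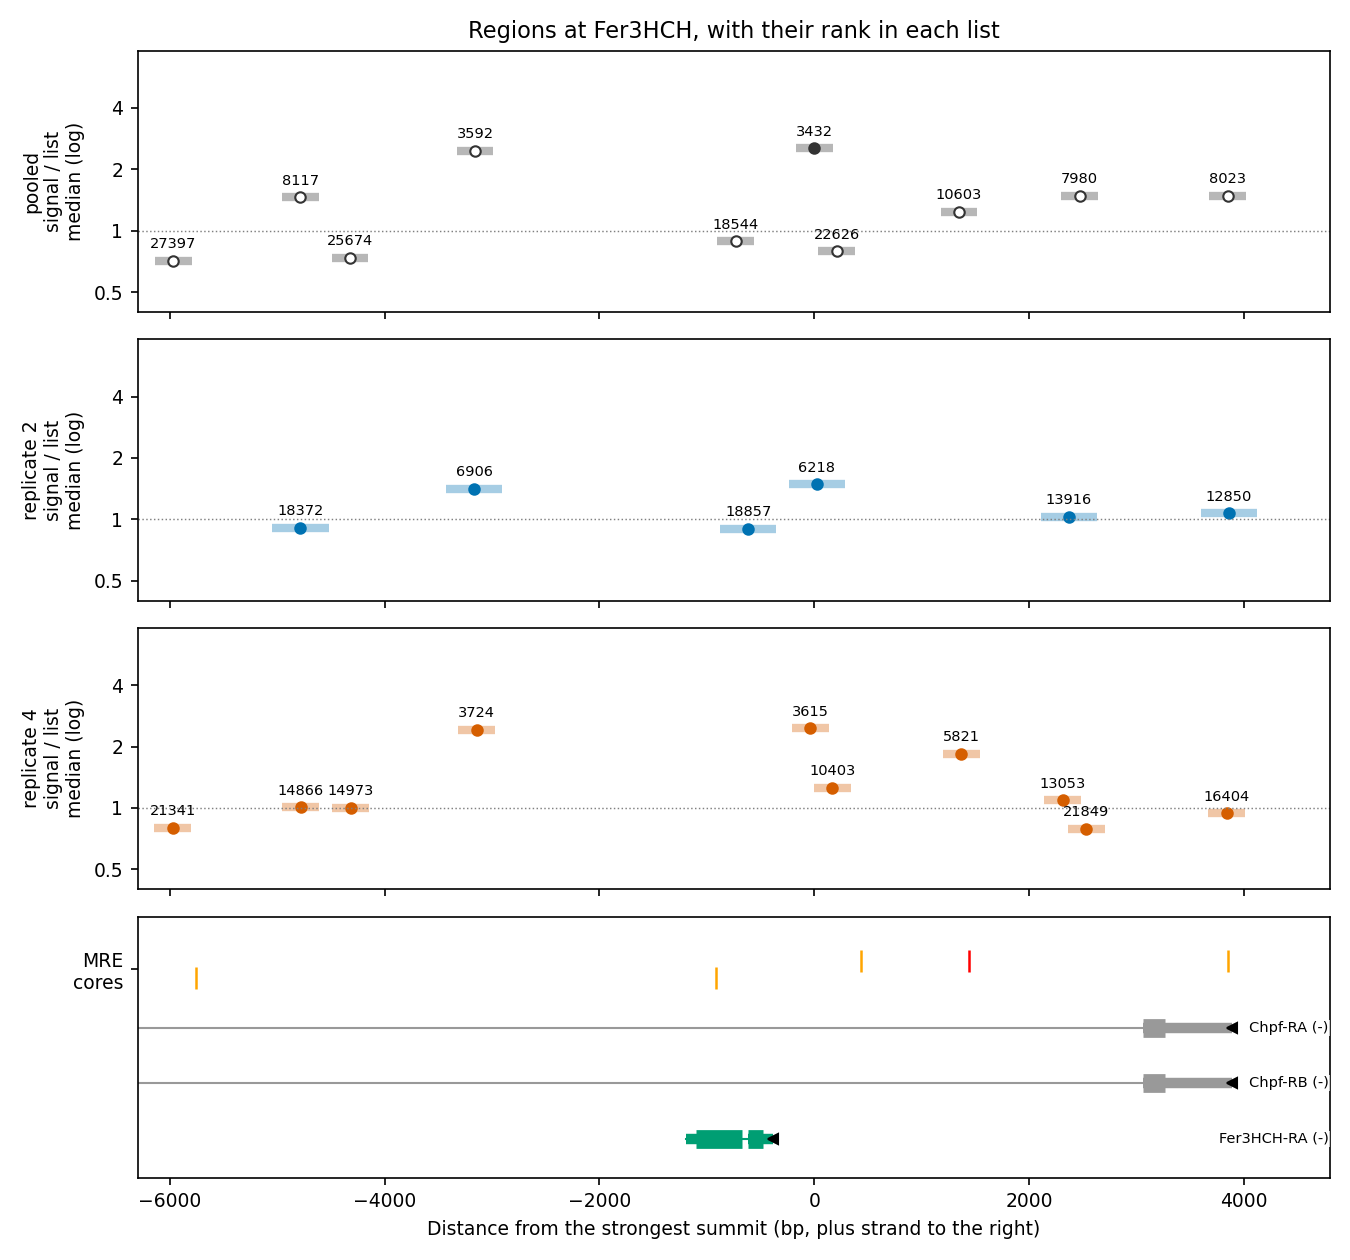
Regions at Fer3HCH in the pooled, replicate 2 and replicate 4 lists, with distance from its thresholded summit in bp on the x axis and signal as a multiple of the list median on a log y axis. Bars are region intervals, points are summits, numbers are ranks, and open points are pooled regions that are not in the thresholded list. The lowest panel shows transcripts and MRE cores, drawn as in the map of the pair. All regions lie at or below 2.54 times the list median, and no core falls under the region of rank 3432.

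For every summit, the MRE cores within 100 bp on either strand were counted. The 4 at the strongest ferritin summit compared with at least 1 at 750 of 3587 thresholded peaks (20.9%) and at least 2 at 132 (3.68%). Only 5 peaks (0.139%) had 4, the highest number in the list. Besides the ferritin peak, these were the peaks of rank 98, 603, 863 and 1803. The starts nearest to them were, in that order, those of the metallothionein gene MtnE, scyl, Gli and CG30114, the last at 4950 bp. In 1 of these 5, the ferritin peak, all cores were on the same strand. Among 29999 pooled candidate regions, 17.7% held at least 1 core and 2.64% at least 2. In 9 of them (0.03%) there were 4 or more, with a highest count of 5. Among 19253 windows of the same size around starts of protein-coding transcripts, 15.5% held at least 1 core and 1 window (0.00519%) held 4 or more. Of the 4 ferritin cores, 2 lay within 50 bp of the summit.

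At the other thresholded summits of the pair, 2 cores lay at the peak of rank 36, 1 at that of rank 148 and 1 at that of rank 1021. The peaks of rank 123, 1622 and 3331 had 0 within 100 bp, as did Fer3HCH. Over the pair and 5 kb on either side, 15012 bp in all, there were 20 cores. Thresholded intervals made up 19.6% of that length and held 11 cores, or 3.74 per kb, against 0.745 per kb outside them. Of the 11 cores, 5 lay in the interval of rank 2, so the contrast largely repeats the count there. No such density over all thresholded peaks is given here. Around Fer3HCH, 10813 bp held 5 cores, all outside the thresholded interval, and the nearest was 438 bp from the summit. The peaks of the pair thus include a summit with 4 cores and summits with none within 100 bp. That limit matters, since the interval of rank 123 held 1 core, 105 bp from its summit. The interval that the summits of rank 148 and 1622 share also held 1, and that of rank 3331 held 0.

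**Figure D5:**
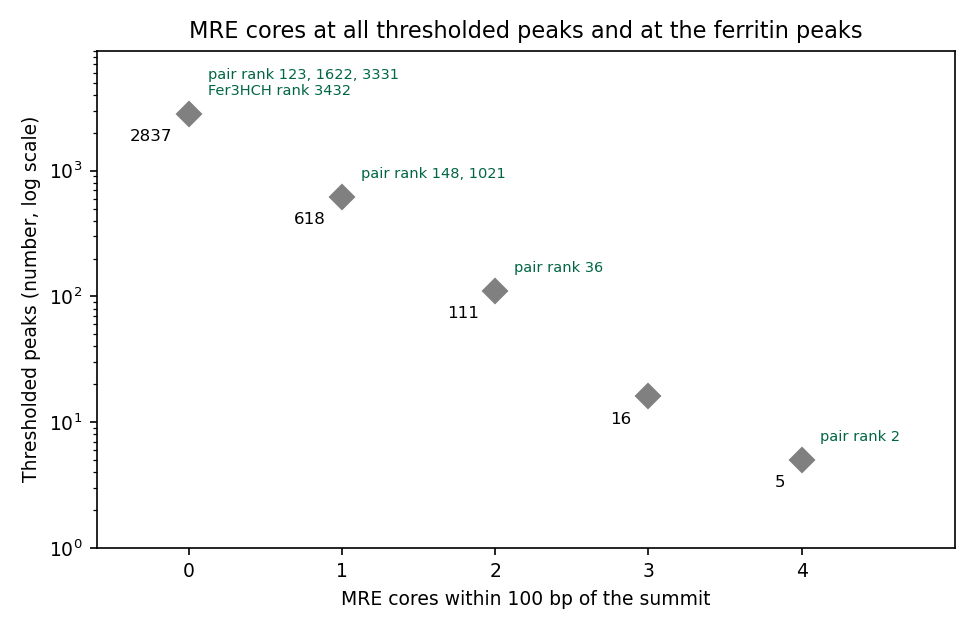
Number of thresholded peaks (log scale) with 0 to 4 MRE cores within 100 bp of the summit, with the ferritin peaks named by rank beside the count they belong to. Of all peaks 2837 had 0 cores and 5 had 4. The strongest ferritin peak is among the 5, and Fer3HCH and 3 peaks of the pair are among those with 0.

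Longer forms of the core were read from the ferritin sites after their flanks had been seen, so their number at the strongest summit is a description and not independent of the choice. TGCRCACG occurred 4 times within 100 bp of the strongest summit, once at the peak of rank 1021 and at none of the other thresholded ferritin summits. Over all thresholded peaks 2.62% held it at least once, and 0.956% of the windows around protein-coding transcript starts did. TGCACACGG occurred 3 times at the strongest summit and once at the peak of rank 1021. It was present at 20 thresholded peaks (0.558%) and in 0.0831% of the start windows. Its occurrences near the pair numbered 5 and near Fer3HCH 0.

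Other motifs were counted within 100 bp of the same summits, on both strands and with overlapping matches counted. GAGAG, bound by the GAGA factor, a protein that opens chromatin at many promoters, matched 6 times at the strongest summit and 5 times at the Fer2LCH peak of rank 123. At least 1 match was present at 31.3% of thresholded peaks. The share of peaks with 5 or 6 matches was not counted, so whether those numbers are unusual is not known. It matched 2 times at the peak of rank 148, once at each of the peaks of rank 36, 1021 and 3331, and 0 times at rank 1622 and at Fer3HCH. Of the 5 matches at rank 123, 3 lie in the 101 bases around that summit, past the exon end at 30389328. The first 46 of these bases are coding exon.
Fer2LCH exon and intron, chr3R:30389283-30389383: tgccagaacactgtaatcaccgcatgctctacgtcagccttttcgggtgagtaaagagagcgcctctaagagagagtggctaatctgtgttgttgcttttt
The TATA box sequence, searched as TATAAA, matched once at rank 36 and once at rank 1622, and at 26.8% of all thresholded peaks. The antioxidant response element TGACNNNGC was present at 5.1% of thresholded peaks and at none of those of the ferritin genes.

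The Fer1HCH transcript also carries a known control element of another kind. Iron-responsive elements are RNA hairpins to which iron regulatory proteins bind in the 5′ UTR of ferritin messages. A search for a CAGTGN loop of 6 bases closed by 5 pairs (G:U pairs allowed), after an unpaired C, gave 1 match around the pair, on the coding strand of Fer1HCH, shown with the loop in capitals.
Fer1HCH element, chr3R:30387681-30387709, minus strand: cgccttctgcgcCAGTGTgtgtaaaggca
It lay in the 5′ UTR of RA and of no other annotated transcript, 681 bp from the strongest MTF-1 summit and within the interval over the overlapping 5′ ends. Of 13445 protein-coding genes with an annotated 5′ UTR, 15 (0.112%) had a match there. Fer1HCH was the 1 ferritin gene among them.

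Genes of the most similar ranks were found by the distance between log10 best ranks over the 3 candidate lists, among protein-coding genes that share no region with a ferritin gene. To Fer1HCH the closest were CG2680, CG2681 and Lint-O, at a distance of 0.469. They share the region of rank 3, 5 and 3 in the pooled, replicate 2 and replicate 4 lists, and each had 1 thresholded summit where Fer1HCH had 7. To Fer3HCH the closest were CG33136 (0.023), with ranks 3378, 5983 and 3496 in the same order, and CG15880 and PGAP2 (0.027), which share 1 region of ranks 3261, 6427 and 3590.

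Other iron genes were set beside the ferritins as a list of 12, covering transferrins, iron transporters, iron regulatory proteins and iron-sulfur cluster assembly. Of these, 7 had a thresholded summit in or within 5 kb, beside 38.7% of all protein-coding genes. Zip99C, a transporter that moves iron into the secretory pathway where ferritin is loaded, had the strongest, with a signal of 1197 (rank 18) at 10 bp from its start. Irp-1B, a homologue of the iron regulatory proteins, had a peak of rank 185, 3274 bp from its start. For IscU, a scaffold for iron-sulfur clusters, the best rank was 447. For Tsf2, a transferrin, it was 744, and for Nfs1, a cysteine desulfurase, 876. For Mvl, an iron and manganese transporter, it was 1011, and for mfrn, a mitochondrial iron importer, 1416. Where the strongest ferritin summit had 4 cores within 100 bp, the strongest Mvl summit had 1 and those of the other 6 genes had 0. Except at Zip99C, the strongest summit of each of these genes lay outside the gene body and more than 3 kb from a start of the listed gene. Which gene's start was nearest to these summits is not given here, so the peaks are not shown to belong to the iron genes. Tsf1, Tsf3, Irp-1A, fh and Mco1 had no thresholded summit in or within 5 kb. The best region of Irp-1A had rank 1548 in replicate 4, 5255 in replicate 2 and 4950 in the pooled list. Counted by the strongest 3587 regions of a replicate, 7 of the 12 genes had one in replicate 2 and 8 in replicate 4.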

How the data were processed

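Peak lists on dm6 were used as deposited. Per the deposited read-me, each replicate and the pooled alignments gave a list of candidate regions, from which a thresholded list was made by the irreproducible discovery rate. The sources used here name no aligner, peak caller, threshold or read number, so depth is unknown and no interval could be given. The authors deposited a signal value, a −log10 q-value and a summit offset for each region; regions were ranked by signal within a list. Gene models came from Ensembl release 115 (BDGP6.54) and sequence from RefSeq's Release 6 genome, the same assembly; 16193 of 16213 annotated start codons (99.9%) read ATG there. Counts were made with python 3.11.15, numpy 2.4.6 and pandas 2.3.3, and were tested on simulated lists. A replicate's region was matched to a pooled one by an overlap of at least 1 bp. All thresholded ferritin peaks and all iron genes with a peak were named; other ferritin regions were given by counts and ranges. Genes, lists, motifs and windows were chosen with earlier results of these data known.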

Additional observations from a re-analysis of the deposited data

How the results depend on the processing

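Of 58 alternative values for 12 results, 40 stayed close to the value reported and 18 moved; no direction was at stake. Leaving out a replicate means using the other's list. The pair kept rank 2 in either replicate, but ranked by −log10 q it tied at rank 1137 among the 2273 pooled regions at the highest value. Its count of 7 peaks became 5 to 6 with a replicate left out and 6 with a stricter signal minimum. Each replicate has a single region where the pooled list has 2 summits, and the peak in the Fer1HCH 3′ UTR had rank 8363 in replicate 2. The pair's signal over the median, 282, became 232 to 238. Its distance to a start, 586 bp, became 517 bp from the interval's centre, 790 bp (Fer2LCH-RA) with the longest transcripts alone, and 585 to 586 bp with a replicate left out. Its 4 cores became 2 within 50 bp. The Fer3HCH count of 1 became 2 within 10 kb, 0 under the stricter minimum and 0 with either replicate left out. Its rank, 3432, became 3615 without replicate 2 and 6218 without replicate 4, and its signal over the median, 2.54, became 2.46 and 1.49. The share of genes with a peak, 38.7%, became 22.4% within 1 kb, 52.8% within 10 kb, 24.5% under the stricter minimum and 37% to 39.4% with a replicate left out. The iron count of 7 became 3 within 1 kb. Shorter windows and the stricter minimum hold fewer peaks by construction. Apart from the pair's count of peaks, the cause of the other changes was not tested. No paired analysis was possible because there was 1 group. With depth unknown, a region missing from a list is not shown to be unbound.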
